A study of Mus musculus with 6 samples.

Results

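The sarcomere is the repeating contractile unit of striated muscle, and 44 genes that encode its scaffold or help to build it were followed in sorted limb muscle progenitors. A gene was taken as measured when a probe set of the platform annotation carried its symbol, and the brightest of its probe sets, by the mean of all 6 arrays, stood for it. In this way 41 of the 44 genes were measured, among 18182 genes in all, while Xirp2, Klhl31 and Trim55 were not analysed here. The 41 genes fell into the thin filament (9 genes), the M-band and A-band with titin (8), the Z-disc (16), and factors of assembly and stretch response (8).

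The cells came from limbs of Tg:Pax7-nGFP mouse embryos on a C57BL/6:DBA2 background, and both ages carried the same transgene, which places a nuclear green fluorescent protein under control of Pax7, the paired-box gene of muscle stem and progenitor cells. Limbs of embryos at stage E12.5 or E17.5, counted in days of gestation, were dissociated with trypsin, GFP-positive cells were sorted, and their RNA was read on 3 Affymetrix arrays per age, labelled biological replicates A, B and C. The sort selects on the transgene alone, and the labels do not say how many embryos were pooled for an array. The comparison asks how the fetal and the embryonic progenitors differ, and here how far sarcomere genes took part. Values are log2 signals after GCRMA, a background correction and normalization that uses probe sequence. Differences are log2 values, positive where E17.5 was higher, and come with a standard error (SE) from limma fitted to all genes and with a Benjamini-Hochberg adjusted p. A gene was called at an adjusted p under 0.05.

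In a sarcomere, actin thin filaments are anchored by their ends in the Z-disc, where alpha-actinin crosslinks them, and slide past myosin thick filaments that myomesins crosslink in the M-band. Titin spans from Z-disc to M-band, nebulin runs along the thin filament, and tropomyosin winds around the actin. New sarcomeres need chaperones for myosin, leiomodins for actin filament growth and ubiquitin ligase adaptors that protect or remove filament proteins. Muscle progenitors are not themselves contractile, and these genes are known for their rise as myoblasts differentiate and fuse.

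Array medians lay between 3.38 and 3.47, and the number of arrays limits the precision. GCRMA values under 4 carry little specific signal, and 42.8% of all genes had a mean there. E17.5 replicates A and B were nearly the same: over the 41 sarcomere genes the SD of their difference was 0.110, where other pairs of one age had 0.554 to 0.743, and no member differed between them by 1 or more. For all genes whose mean reached 6 the SD was 0.152, and in other pairs 0.412 to 0.551. Whether these arrays hold independent samples is not settled by the labels, so calls are also given with both merged into 1 sample by averaging. Pax7 and Myod1 had signal on all arrays, with Pax7 at 11.19 or more and Myod1 between 10.69 and 11.09. A list of 5 genes was used for progenitors, though not all of them, Chrna1 among these, are confined to progenitors. Of the 5 genes 2 were called higher at E17.5, beside 16.9% of all genes called. They were Pax7 (0.91, SE 0.16, adjusted p = 0.0105 by limma, 0.0435 averaged) and Chrna1 (2.53, SE 0.26, 0.00108 and 0.00562). Myf5 (0.90, SE 0.29) and Cdh15 (0.92, SE 0.30) stood higher without overlap but were not called, and Myod1 differed by 0.15.

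Sarcomere genes went both ways between the ages in the fit of 6 arrays. At E17.5, 8 of the 41 rose, 4 fell and 29 were not called, so 29.3% were called against 16.9% of all genes (8.21% higher and 8.73% lower). With E17.5 A and B averaged, 6 were higher and 1 lower, against 10.2% of all genes called (5.62% higher and 4.54% lower). The 1 lower was Lmod3, which stayed under 4 on every array. The median difference of the 41 genes was 0.15, beside 0.00 over all genes. Both ages kept apart without overlap in 21 of the 41 (51.2%, against 31.4% of all genes), with 14 higher (14.2% of all genes) and 7 lower (17.2% of all genes). Among assembly and stretch-response factors Ankrd1, Fhl1 and Klhl41 rose, and among M-band and A-band genes Mybpc1, Myom2 and Myom3. In the Z-disc Flnc rose while Myoz1, Actn3 and Synpo2 fell, and in the thin filament Actc1 rose and Lmod3 fell. In RNA from sorted pools, fewer cells of a type and less RNA per cell cannot be told apart.

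**Figure D1:**
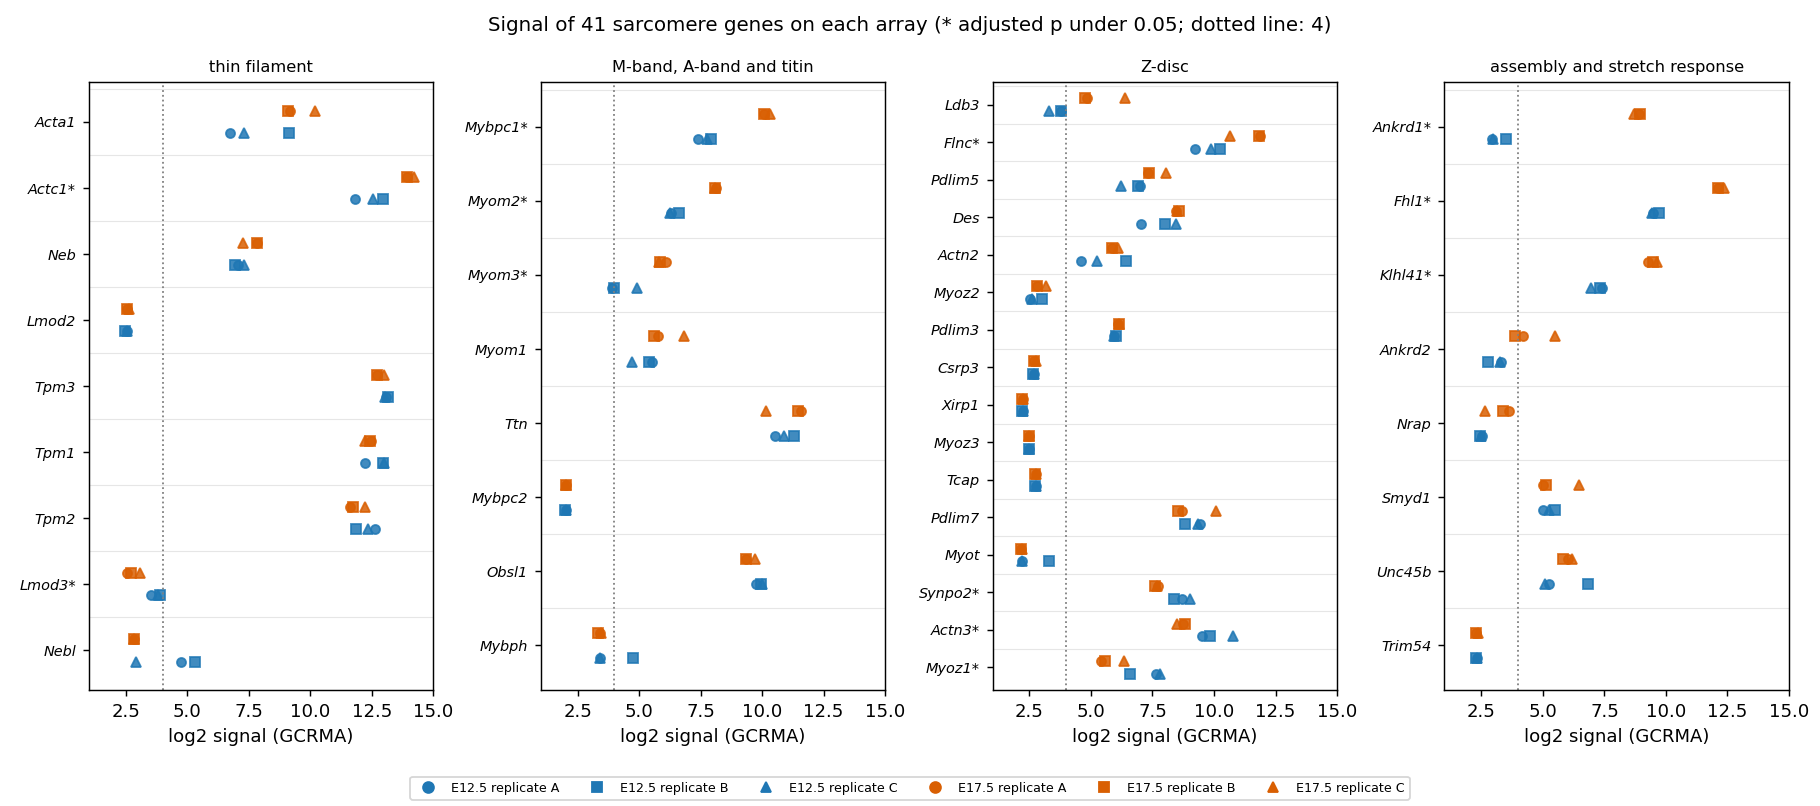
Log2 signal (x axis) of each of the 41 measured sarcomere genes (rows) on each of the 6 arrays, in 4 panels by subgroup; blue marks are E12.5, orange marks E17.5, and shapes give the replicate letter. Asterisks mark the 12 called genes, and the dotted line is at 4, under which values carry little specific signal: the Ankrd1 arrays stand at 2.95 to 3.52 and at 8.70 to 8.95, while 11 genes stay under 4 on all arrays.

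Ankrd1, which encodes an ankyrin repeat protein that binds titin in the I-band and responds to stretch, went from background to a clear signal. Its E12.5 arrays read 2.95, 3.52 and 2.96 (replicates A, B and C) and its E17.5 arrays 8.89, 8.95 and 8.70. No E12.5 array passed 4 and no E17.5 array fell under 8. The difference was 5.70 (SE 0.25, adjusted p = 7.38e-05 by limma; 0.000736 with A and B averaged). Since the E12.5 level lies in the range without specific signal, its size depends on the background correction, and with values under 4 raised to 4 it was 4.85. A further Ankrd1 probe set gave 5.22. Its relative Ankrd2, which belongs to the same titin-binding family, read 3.30, 2.78 and 3.25 at E12.5 and 4.21, 3.87 and 5.49 at E17.5. These arrays did not overlap, but the difference of 1.41 (SE 0.42) missed the threshold (adjusted p = 0.0651 by limma), and E17.5 replicate C stood well above A and B. Ankrd2 was called higher without E17.5 replicate B (1.74, adjusted p = 0.0493 by limma) or C (0.93, 0.032). All its E12.5 arrays lay under 4, and with values under 4 raised to 4 its difference was 0.57 (adjusted p = 0.598 by limma).

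Fhl1, a protein of LIM domains that binds myosin-binding protein C and titin, was higher on every E17.5 array. Signals of 9.47, 9.73 and 9.42 at E12.5 stood against 12.13, 12.12 and 12.38 at E17.5. The groups lay 2.67 apart (SE 0.13, adjusted p = 8.00e-05 by limma; 0.000736 with A and B averaged), far beyond the SD of 0.17 and 0.15 within the ages. Klhl41, a kelch-repeat adaptor for a cullin ubiquitin ligase that stabilises nebulin, rose from 7.41, 7.31 and 6.94 to 9.28, 9.46 and 9.65. Its difference of 2.24 (SE 0.18) had an adjusted p of 0.000459 by limma, and 0.00316 with A and B averaged. These 3 genes kept their calls without any 1 array.

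The remaining factors of this subgroup were not called. Nrap, a nebulin-related protein of early myofibril assembly, read 2.52, 2.43 and 2.47 at E12.5 and 3.61, 3.40 and 2.65 at E17.5, all under 4 (difference 0.75, SE 0.23, adjusted p = 0.0744 by limma). Without E17.5 replicate C, the nearest to E12.5, Nrap was called higher (1.03, adjusted p = 0.0012 by limma). Smyd1, a myosin-binding methyltransferase, differed by 0.29 (SE 0.42) and Unc45b, the myosin chaperone, by 0.27 (SE 0.48). Unc45b overlapped because E12.5 replicate B stood at 6.84, above all other arrays. Trim54, a microtubule-associated ubiquitin ligase, stayed between 2.30 and 2.36. In this subgroup 3 of 8 genes were called, all higher, beside the 16.9% of all genes called. The median difference was 1.08, and 0.43 with values under 4 raised to 4.

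Promoter sequences are shown for the 3 largest rises of this subgroup, for the 2 sarcomeric actins and for Synpo2, because these genes set the contrast between members that rose, fell or varied. Each is the run of 250 bases before the RefSeq transcript start in GRCm38.p6, read 5′ to 3′ along the gene's strand. Capitals mark matches on either strand to the E-box form CAGCTG, a site of myogenic basic helix-loop-helix factors, to the CArG box of serum response factor, to the MEF2 box, or to the M-CAT motif CATTCC of TEAD factors.
Ankrd1 (chr19:36119845-36120094, minus strand): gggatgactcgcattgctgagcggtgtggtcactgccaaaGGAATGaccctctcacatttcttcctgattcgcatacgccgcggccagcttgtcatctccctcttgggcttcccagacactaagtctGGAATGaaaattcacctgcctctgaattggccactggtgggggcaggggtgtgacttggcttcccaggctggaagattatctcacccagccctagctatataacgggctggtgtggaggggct
Fhl1, the first of 2 windows (chrX:56779433-56779682, plus strand): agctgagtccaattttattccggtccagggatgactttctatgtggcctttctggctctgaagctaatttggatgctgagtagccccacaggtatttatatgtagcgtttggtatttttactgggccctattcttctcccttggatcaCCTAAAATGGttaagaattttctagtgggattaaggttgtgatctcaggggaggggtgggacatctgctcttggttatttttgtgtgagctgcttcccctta
Klhl41 (chr2:69669870-69670119, plus strand): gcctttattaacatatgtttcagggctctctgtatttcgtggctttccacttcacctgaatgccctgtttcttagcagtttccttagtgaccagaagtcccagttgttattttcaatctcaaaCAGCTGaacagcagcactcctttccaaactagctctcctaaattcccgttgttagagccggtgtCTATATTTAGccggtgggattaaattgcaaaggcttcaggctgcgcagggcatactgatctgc
Actc1 (chr2:114052876-114053125, minus strand): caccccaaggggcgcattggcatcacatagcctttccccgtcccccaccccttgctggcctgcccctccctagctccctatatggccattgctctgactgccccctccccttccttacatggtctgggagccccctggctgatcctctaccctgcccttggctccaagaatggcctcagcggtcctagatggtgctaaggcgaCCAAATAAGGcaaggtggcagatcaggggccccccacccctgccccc
Acta1 (chr8:123894776-123895025, minus strand): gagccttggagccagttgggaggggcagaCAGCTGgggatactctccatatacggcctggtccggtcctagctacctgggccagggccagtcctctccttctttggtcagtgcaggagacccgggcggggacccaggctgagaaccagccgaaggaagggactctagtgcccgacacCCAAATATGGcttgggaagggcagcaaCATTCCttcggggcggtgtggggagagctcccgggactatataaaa
Synpo2 (chr3:123236150-123236399, minus strand): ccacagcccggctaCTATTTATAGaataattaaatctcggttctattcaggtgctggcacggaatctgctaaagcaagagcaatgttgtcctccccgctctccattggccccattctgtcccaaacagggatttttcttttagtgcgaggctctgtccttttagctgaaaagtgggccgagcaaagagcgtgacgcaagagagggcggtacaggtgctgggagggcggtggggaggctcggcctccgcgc

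The Ankrd1 run held 2 M-CAT matches, and those of both actins and Fhl1 held 1 CArG box each. Klhl41, which rose, and Synpo2, which fell, each held a MEF2 box. Synpo2 was the only member called lower that had a promoter window, and a link between motif and direction was not tested. In the full RefSeq windows of 300 bases, which reach 50 bases past the start, promoters were matched for 34 of the 44 listed genes, in 43 windows. A CArG box lay in 16.3% of these windows and in 1.63% of all 32851 promoter windows, and a MEF2 box in 6 of the 43 and in 3.19% of all. CAGCTG lay in 30.2% and 16.3%, and CATTCC in 25.6% and 14.7%. The looser E-box CANNTG, which takes in every CAGCTG match, lay in 79.1% and 72.3%. Among the windows with a CArG box were those of Actc1 and Fhl1, which rose, and of Acta1, Nebl, Ldb3 and Myom1, which were not called. Windows of 1 gene can overlap, as those of Ldb3 did, and a match shows letters only.

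The sarcomeric actins, the core of the thin filament, moved with different spread. Actc1, the cardiac alpha-actin that also serves embryonic skeletal muscle, read 11.82, 12.94 and 12.55 at E12.5 and 13.92, 13.92 and 14.21 at E17.5. All E17.5 arrays were higher, and the difference was 1.58 (SE 0.27, adjusted p = 0.0098 by limma; 0.0302 with A and B averaged). Acta1, the skeletal alpha-actin of mature fibres, read 6.74, 9.12 and 7.30 at E12.5 and 9.16, 9.09 and 10.18 at E17.5. Its fitted difference was larger, 1.76, but E12.5 replicate B stood among the E17.5 arrays, and the gene was not called (SE 0.63, adjusted p = 0.117 by limma). Without E12.5 replicate B the Acta1 difference was 2.46 (adjusted p = 0.0132 by limma). The difference between the 2 actins was not tested.

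The tropomyosins, coiled-coil proteins on the actin filament, were not called on their leading probe sets. Tpm1 differed by -0.34 (SE 0.22), Tpm2 by -0.42 (SE 0.23) and Tpm3 by -0.30 (SE 0.11, adjusted p = 0.115 by limma). Tpm3 read 13.09, 13.17 and 13.05 at E12.5 and 12.72, 12.70 and 12.99 at E17.5, without overlap. Leaving out 1 array called Tpm3 lower in 1 case (without E17.5 replicate C, adjusted p = 0.0254 by limma) and Tpm1 lower in 1 (without E12.5 replicate A, -0.59, 0.0201). The 2 dimmest of the 5 Tpm3 probe sets went the other way. One of them read 4.92, 3.95 and 4.59 at E12.5 and 5.82, 5.99 and 6.73 at E17.5, and over all 34909 named probe sets its difference of 1.69 (SE 0.37) had an adjusted p of 0.0341 by limma. Another rose by 1.22 (SE 0.28, adjusted p = 0.0428 by limma). Both calls were lost with A and B averaged (adjusted p = 0.0829 and 0.105), and which Tpm3 transcripts each probe set reads was not analysed here.

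Of the other thin filament genes, Neb, the nebulin gene, differed by 0.55 (SE 0.22, adjusted p = 0.165 by limma), with E17.5 replicate C at 7.28 inside the E12.5 range. Without that array Neb was called higher (0.73, adjusted p = 0.0483 by limma). Lmod3, a leiomodin that nucleates actin, read 3.55, 3.88 and 3.83 at E12.5 and 2.56, 2.70 and 3.08 at E17.5. It was called lower (-0.97, SE 0.16, adjusted p = 0.00727 by limma; 0.0312 with A and B averaged), but every value was under 4, and with values under 4 raised to 4 no difference remained. Its relative Lmod2 stayed between 2.49 and 2.63. Nebl, the nebulette gene, stood at 4.74 and 5.33 in E12.5 replicates A and B but at 2.91 in C, and between 2.83 and 2.86 at E17.5 (difference -1.49, SE 0.57, adjusted p = 0.141 by limma). Without E12.5 replicate C it was called lower (adjusted p = 0.00222 by limma). In all 2 of 9 thin filament genes were called (22.2%, beside 16.9% of all genes), and the median difference of the 9 was -0.30.

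**Figure D2:**
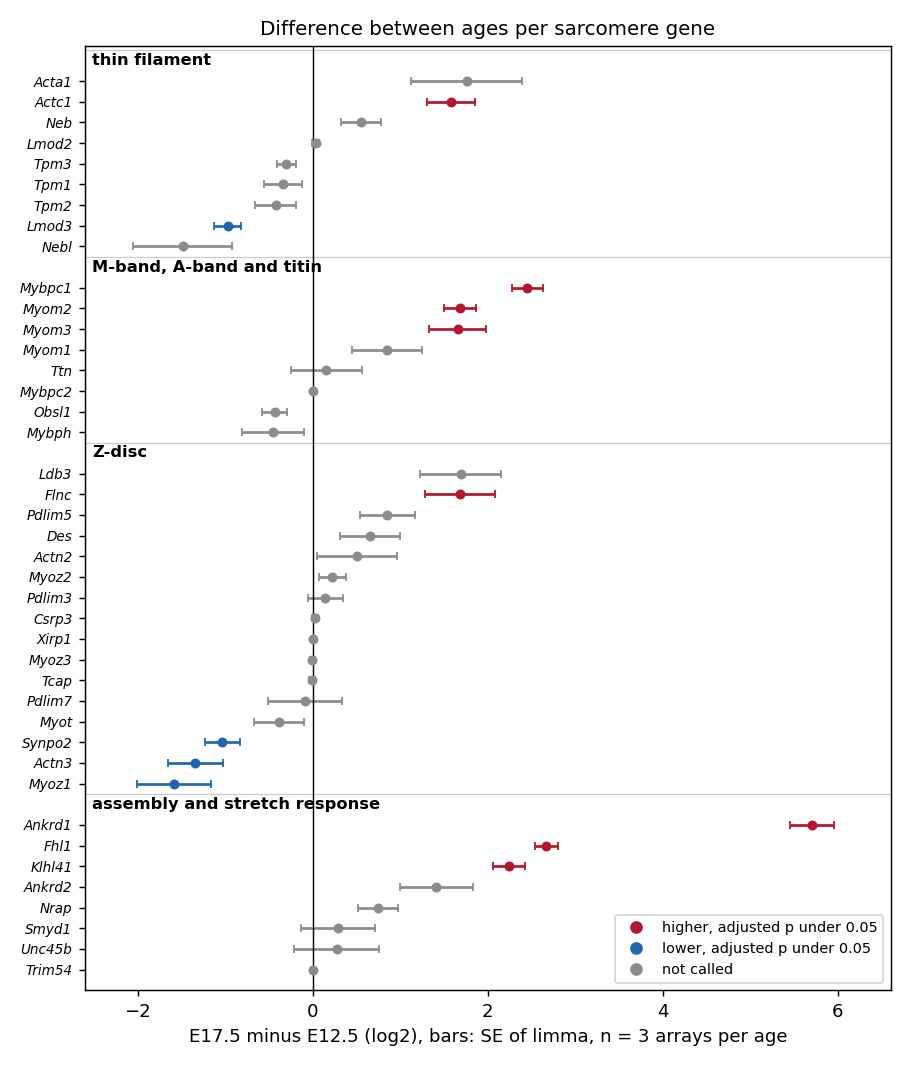
Log2 difference between the ages, positive where E17.5 is higher (x axis), for the 41 sarcomere genes (rows, by subgroup), with bars of 1 SE from limma and 3 arrays per age; red is called higher, blue called lower, grey not called. Rises reach 5.70 for Ankrd1 and falls -1.58 for Myoz1, and the 4 falls lie in the thin filament and the Z-disc.

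Thick filament and M-band genes were higher at E17.5 in the 3 of 8 that were called (37.5%, beside 16.9% of all genes). The median difference of the 8 was 0.50. Mybpc1, the slow skeletal myosin-binding protein C, read 7.39, 7.91 and 7.78 at E12.5 and 10.07, 10.06 and 10.31 at E17.5. The rise of 2.45 (SE 0.17, adjusted p = 0.00028 by limma; 0.00205 with A and B averaged) was over 10 times the SE. Its 2 dimmer probe sets gave 1.98 and 2.22 but were not called, since E17.5 replicate C lay at 6.75 and 6.06, below the 8.01 to 9.15 of replicates A and B. Mybpc2, the fast-fibre relative, read at most 2.05 on all arrays. Mybph, a related protein without the full set of domains, read 3.43, 4.75 and 3.41 at E12.5 and 3.34 to 3.46 at E17.5.

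Myomesins link thick filaments at the M-band, and all 3 stood higher at E17.5 without overlap, as did 14.2% of all genes. Myom2, the M-protein of fast fibres, read 6.31, 6.64 and 6.27 at E12.5 and 8.14, 8.07 and 8.07 at E17.5 (difference 1.69, SE 0.18, adjusted p = 0.00142 by limma; 0.0126 with A and B averaged). That probe set can match several transcripts, and among those that cannot, the Myom2 difference was 1.14 (adjusted p = 0.0989 by limma). The brightest of the latter read 2.43 to 2.57 at E12.5 and 3.70, 2.76 and 4.40 at E17.5, mostly under 4. The dimmest differed by 0.03. A further one open to several transcripts rose by 1.03 (SE 0.21). Its adjusted p by limma over named probe sets was 0.0251, and 0.0948 with A and B averaged. Myom3 read 3.91, 3.97 and 4.92 at E12.5 and 6.11, 5.84 and 5.82 at E17.5, a difference of 1.66 (SE 0.33, adjusted p = 0.0159 by limma). The Myom3 call was lost with A and B averaged (adjusted p = 0.0557) and without E17.5 replicate A (0.0615) or B (0.0555). Myom1, the myomesin of all striated muscle, read 5.53, 5.40 and 4.73 at E12.5 and 5.78, 5.62 and 6.81 at E17.5. It was not called (difference 0.85, SE 0.40, adjusted p = 0.233 by limma), and E17.5 replicates A and B lay close to the E12.5 range.

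Titin and obscurin-like 1, a titin-binding scaffold, were not called. Ttn read 10.51, 11.30 and 10.91 at E12.5 and 11.57, 11.47 and 10.14 at E17.5, so that replicates A and B were above and C below all E12.5 arrays (difference 0.15, SE 0.41). Obsl1 read 9.75, 9.96 and 9.99 at E12.5 and 9.35, 9.34 and 9.71 at E17.5 (-0.43, SE 0.14, adjusted p = 0.0947 by limma). Without E17.5 replicate C Obsl1 was called lower (adjusted p = 0.0292 by limma).

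In the Z-disc 1 of 16 genes was called higher and 3 lower (25%, beside 16.9% of all genes), and the median difference was 0.02. None of these 4 calls held with E17.5 A and B averaged. Flnc, the muscle filamin that crosslinks actin at the Z-disc and membrane, read 9.21, 10.25 and 9.86 at E12.5 and 11.87, 11.84 and 10.66 at E17.5. The ages did not overlap, but E17.5 replicate C lay close to the E12.5 range (difference 1.68, SE 0.40, adjusted p = 0.0305 by limma; 0.0954 with A and B averaged). Leaving out A or C of E12.5, or A or B of E17.5, also ended the Flnc call (adjusted p 0.0676 to 0.102 by limma).

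Actn3, the alpha-actinin of fast fibres, read 9.51, 9.84 and 10.76 at E12.5 and 8.74, 8.83 and 8.51 at E17.5 (difference -1.34, SE 0.31, adjusted p = 0.0296 by limma; 0.0748 with A and B averaged). Myoz1, a calsarcin of fast fibres that ties calcineurin to alpha-actinin, read 7.66, 6.59 and 7.82 at E12.5 and 5.40, 5.56 and 6.36 at E17.5 (-1.58, SE 0.42, adjusted p = 0.0461 by limma; 0.143 averaged). Each fell without overlap, but leaving out 1 array ended the call of Actn3 in 4 of 6 cases (E12.5 B and each E17.5 array, adjusted p 0.062 to 0.08). Myoz1 lost its call without A or C of E12.5 and without A or B of E17.5 (adjusted p 0.109 to 0.148 by limma). Actn2, the alpha-actinin of all striated fibres, differed by 0.51 (SE 0.46) and overlapped. The other calsarcins, Myoz2 of slow fibres and Myoz3 of fast fibres, stayed at 2.52 to 3.16 and at 2.47 to 2.50.

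Synpo2, or myopodin, an actin-bundling protein of the Z-disc, was lower by an amount that depended on the probe set. Its leading probe set read 8.69, 8.36 and 9.04 at E12.5 and 7.71, 7.59 and 7.69 at E17.5 (difference -1.03, SE 0.20, adjusted p = 0.0141 by limma; 0.0552 with A and B averaged). That call was also lost without E17.5 replicate A (0.051) or B (0.0629). The next one read 9.59, 8.19 and 9.36 at E12.5 and 5.03, 4.76 and 5.12 at E17.5. That is -4.08 (SE 0.38), with an adjusted p of 0.00157 by limma over all named probe sets and 0.0096 with A and B averaged. A dimmer one gave -1.76 (SE 0.40, adjusted p = 0.0391 by limma; 0.132 averaged), and the dimmest read 2.22 to 2.24 on all arrays. The 3 probe sets with signal thus pointed the same way.

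**Figure D3:**
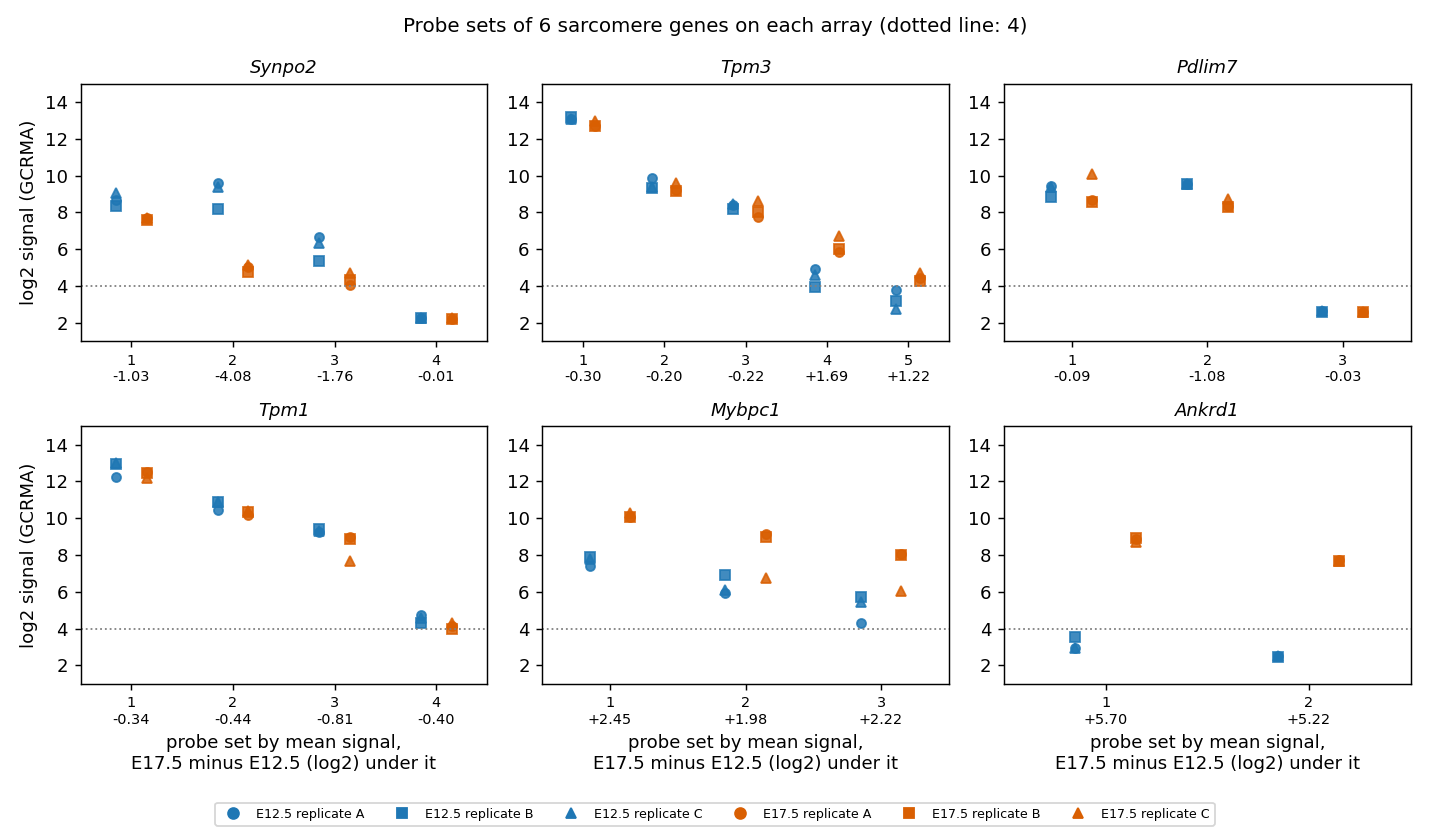
Log2 signal (y axis) on each array for each probe set of 6 sarcomere genes, ordered from left by mean signal, with the E17.5 minus E12.5 difference printed under each; blue is E12.5, orange E17.5, shapes give replicate letters, and the dotted line is at 4. Synpo2 differs by -1.03 and -4.08 on its leading pair of probe sets, and Tpm3 by -0.30 on its leading one but 1.69 and 1.22 on its dimmest.

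The remaining Z-disc genes were not called. Ldb3, a PDZ and LIM protein that holds alpha-actinin, read 3.80, 3.80 and 3.29 at E12.5 and 4.83, 4.74 and 6.39 at E17.5 (difference 1.69, SE 0.46, adjusted p = 0.0515 by limma). Without E17.5 replicate C, the array farthest from E12.5, Ldb3 was called higher (adjusted p = 0.0188 by limma). With values under 4 raised to 4 its difference was 1.32 (adjusted p = 0.175 by limma). Des, the muscle intermediate filament, read 7.05, 8.01 and 8.46 at E12.5 and 8.44, 8.56 and 8.49 at E17.5 (0.66, SE 0.35), and the spread lay at E12.5. Among the PDZ-LIM relatives of Ldb3, Pdlim5 differed by 0.85 (SE 0.31), Pdlim3 by 0.14 (SE 0.20) and Pdlim7 by -0.09 (SE 0.42). The next Pdlim5 probe sets by mean signal pointed lower (-0.64, SE 0.32, and -0.95, SE 0.50), and neither was called.

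Pdlim7 had a further probe set that was called. It read 9.56, 9.53 and 9.52 at E12.5 and 8.32, 8.29 and 8.75 at E17.5, and it was lower by an adjusted p of 0.00778 by limma over named probe sets (difference -1.08, SE 0.16; 0.0403 with A and B averaged). The leading one had E17.5 replicate C at 10.10, above all other arrays. Over the 91 probe sets of the 41 genes, 12 were higher and 6 lower (19.8%), against 11.3% of all named probe sets. With A and B averaged 6 were higher and 2 lower, against 5.85% of all named probe sets.

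Of the Z-disc members, 6 stayed under 4 on every array. Tcap, the titin cap, stayed at 2.74 to 2.76, Csrp3, a LIM protein of stretch sensing, at 2.66 to 2.77, and Xirp1, an actin-binding repeat protein, at 2.18 to 2.23. Myot, which crosslinks actin, read 3.30 in E12.5 replicate B and at most 2.19 elsewhere. With Mybpc2, Myoz2, Myoz3, Nrap, Trim54, Lmod2 and Lmod3 they make up the 11 genes under 4 on every array. Values in that range carry little specific signal, and the call of Lmod3 lies wholly within it. Of the 20 members whose mean reached 6, 6 were higher and 3 lower, against 26.4% of all such genes called, and their median difference was 0.35. With A and B averaged 5 of them were higher and none lower by limma, against 14.8% of such genes called.

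**Figure D4:**
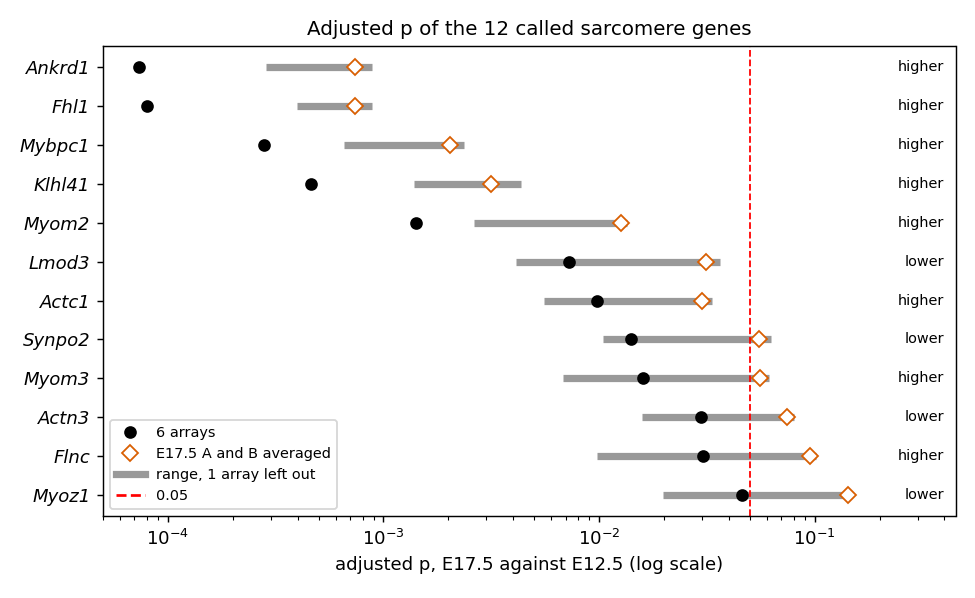
Adjusted p (x axis, log scale) of the 12 called sarcomere genes: black points are the fit of 6 arrays, open diamonds the fit with E17.5 A and B averaged, grey bars the range when 1 array is left out, and the dashed line is at 0.05. Ankrd1, Fhl1, Mybpc1, Klhl41, Myom2, Lmod3 and Actc1 stay left of the line throughout; Synpo2, Myom3, Actn3, Flnc and Myoz1 cross it.

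Single arrays carried much of the spread within an age. E12.5 replicate B lay at least 1 above the mean of A and C in 6 members, namely Acta1 (2.10), Unc45b (1.66), Nebl (1.51), Actn2 (1.49), Mybph (1.33) and Myot (1.12), and below it in Myoz1 (-1.15). These 7 are 17.1% of the members, and 3.84% of all genes lay as far apart on that array. E17.5 replicate C lay at least 1 above the mean of A and B in Ldb3 (1.61), Pdlim7 (1.49), Ankrd2 (1.45), Smyd1 (1.37), Myom1 (1.11) and Acta1 (1.06). It lay below in Ttn (-1.38) and Flnc (-1.20), so 8 members (19.5%) stood apart, against 4.36% of all genes. Acta1 was the member high on both.

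**Figure D5:**
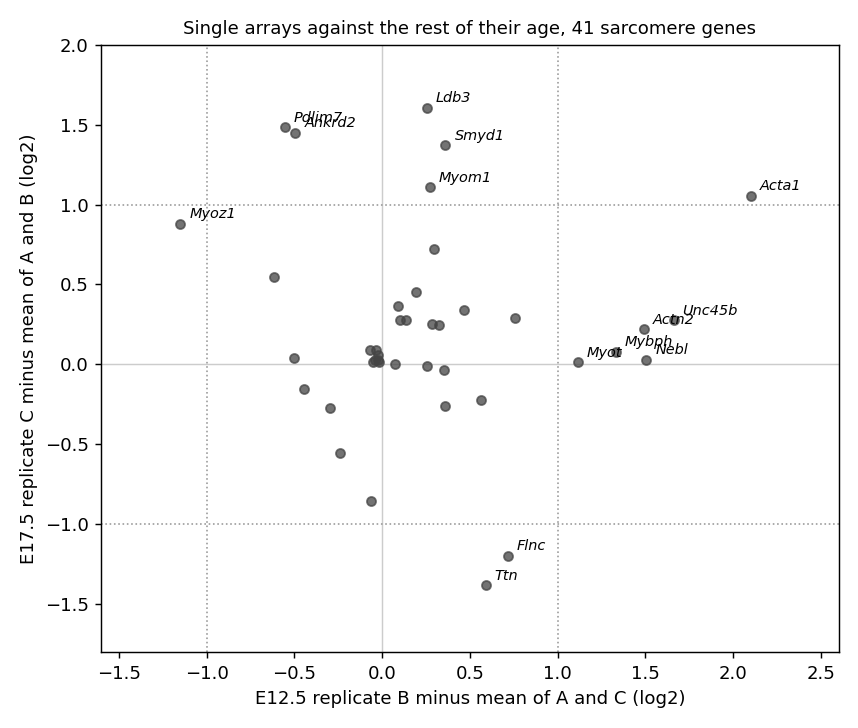
Each point is 1 of the 41 sarcomere genes, placed by how far E12.5 replicate B lies from the mean of E12.5 A and C (x axis, log2) and E17.5 replicate C from the mean of E17.5 A and B (y axis, log2); dotted lines are at -1 and 1. Acta1 lies beyond 1 on both axes (2.10 and 1.06), and Ttn and Flnc lie below -1 on the y axis.

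Markers of other cells moved with these arrays, and their part in the results was not tested. On E12.5 replicate B the summed signal (log2 of the sum over a list) of 8 connective tissue genes was 12.21, against 10.27 and 9.48 in A and C. For 5 cartilage genes it was 12.57, against 11.89 and 11.75. The 6 differentiation genes outside the members, among them Myog and Tnnt2, summed to 12.38 there and to 10.86 and 11.84 in A and C. At E17.5 they summed to 13.52 to 13.80, highest in replicate C, and 5 of the 6 were called higher, beside 8.21% of all genes. Myh3 was not called and went the other way (-0.73, SE 0.55). On E17.5 replicate C connective tissue genes summed to 11.59, below 12.06 and 12.10 in A and B, and cartilage genes to 8.11, below 9.59 and 9.76.

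Markers of other cells also moved between the ages. The sum of 3 erythroid genes lay between 13.02 and 14.89 at E12.5 and between 5.10 and 5.91 at E17.5. That fall was in Hbb-y, an embryonic globin (-10.41, SE 0.54). Alas2 differed by 0.69 (SE 0.29) and was not called, and Hba-a1 was at most 2.47. The sum of 4 endothelial genes lay between 5.93 and 7.20 at E12.5 and between 10.10 and 10.37 at E17.5. That rise was in Tek (4.88, SE 0.29), the only 1 of the 4 called. Kdr (-1.37, SE 0.77) and Cdh5 (-0.35, SE 0.35) pointed lower, and Pecam1 was at most 2.44. Of 4 macrophage genes 1 was called, Cd68 (2.99, SE 0.38), and Ptprc was at most 2.74. Of 8 connective tissue genes 3 were higher and 1 lower. Dpt rose from 1.69 to 2.57 at E12.5 to 11.06 to 11.24 at E17.5 (9.04, SE 0.27). Tnmd (4.38, SE 0.87) and Col1a1 (2.76, SE 0.61) were also higher, and Pdgfra (-3.68, SE 0.87) was lower. With A and B averaged Tnmd and Col1a1 lost their calls (adjusted p = 0.0561 and 0.0773 by limma). Among those not called, Osr1 (-2.54) and Lum (-1.44) pointed lower and Dcn (1.87) and Scx (0.12) higher. Of 5 cartilage genes 1 was called, Col9a1 (-4.02, SE 0.89), and of 3 nerve and glia genes 1, Elavl4 (-1.65, SE 0.38). The Elavl4 call was lost with A and B averaged (adjusted p = 0.0851 by limma). Over all genes 16.9% were called. The part of these cells in the differences of the members was not tested.

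Markers of other striated and smooth muscle were read as well. Of 5 heart muscle genes, Nppa and Myl7 were under 4 on all arrays, 2 were called lower and none higher, and the sum ran from 7.65 to 8.42 at E12.5 and from 7.06 to 8.34 at E17.5. Of 7 smooth muscle and pericyte genes, Myh11, Cnn1 and Actg2 were under 4 on all arrays. Tagln (5.22, SE 0.35) and Rgs5 (3.89, SE 0.47) were called higher, and Pdgfrb (-3.84, SE 0.56) and Acta2 (-0.49, SE 0.11) lower. The Acta2 call was lost with A and B averaged (adjusted p = 0.0946 by limma). The sum of the 7 genes ran from 13.73 to 14.04 at E12.5 and from 13.49 to 13.68 at E17.5. Acta2, at 13.22 to 13.97, made up most of it. Myl4, also on the heart list, differed by 0.77 (SE 0.71) and stood at 7.95 in E12.5 replicate B and 8.23 in E17.5 replicate C. Over all genes 16.9% were called, and whether such cells took part in any member's difference was not tested.

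Further genes of the sarcomere and its regulators were read from a list of 31, of which 30 were measured. Of these 8 were higher, 6 lower and 16 not called, and the median difference was 0.01. The share called was 46.7%, beside 16.9% of all genes and 26.4% of genes with a mean of at least 6. With A and B averaged 8 were higher and 4 lower, beside 10.2% of all genes called. Among the rises were Cryab (5.01, SE 0.16), the small heat shock protein that protects desmin and titin, Pdlim1 (3.12, SE 0.37), Cap2 (2.63, SE 0.17), an actin recycling protein, and Tmod1 (2.16, SE 0.40), which caps thin filament ends. Among the falls were Fhod3 (-2.38, SE 0.26), a formin of myofibril assembly, Trim63 (-2.02, SE 0.38), the MuRF1 ubiquitin ligase, Palld (-1.61, SE 0.15) and Synpo2l (-1.12, SE 0.20), the paralogue of Synpo2. Klhl40, the relative of Klhl41, and Srf, whose protein binds the CArG box, were picked after their values were seen and were higher by 1.64 (SE 0.22) and 0.61 (SE 0.11). Without E17.5 replicate B the call of Tmod1 was lost (adjusted p = 0.0543 by limma). These 10 genes were called by limma (adjusted p from 3.36e-05 to 0.0133, and from 0.000399 to 0.0457 with A and B averaged).

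Cytoskeletal counterparts act outside the sarcomere. Of 16 measured genes 3 were higher, none lower and 13 not called by limma, beside the 16.9% of all genes called, with a median difference of -0.04. With A and B averaged 2 were higher. The rises were Myh9 (1.64, SE 0.26), a non-muscle myosin, Zyx (1.46, SE 0.24), a focal adhesion protein, and Vim (1.39, SE 0.30), the intermediate filament of immature cells. Vim lost its call with A and B averaged (adjusted p = 0.0673 by limma) and without E12.5 replicate C, E17.5 replicate A or E17.5 replicate B (at most 0.0703). Actb, the cytoplasmic beta-actin, differed by -0.06 and Tpm4, the cytoskeletal tropomyosin, by 0.09, where the sarcomeric Actc1 differed by 1.58.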

How the data were processed

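The authors deposited 1 log2 signal for each probe set and array. GCRMA is named in the submitters' processing notes, with no version in the sources used here. Per the labels' protocols, 100 ng of RNA was amplified in a two-cycle 3′ procedure, so signal depends on probe position and RNA integrity, which was not assessed. Values ran from 0.96 to 15.94. Of 44994 probe sets 34909 had 1 symbol and were used, 931 carried several, and 9154 are unnamed here. Symbols follow the RefSeq list of GRCm38.p6 through entrez IDs, and each gene was represented by its brightest probe set. The number of arrays limits precision.

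Ages were compared with limma 3.58.1 in R 4.3.3 (eBayes with an intensity trend, no filter, 3 arrays against 3), with Benjamini-Hochberg adjustment over 18182 genes and a threshold of 0.05. Single probe sets were fitted over all named ones. The fit was run on simulated data with independent arrays, which cannot show how calls behave when E17.5 A and B are nearly the same. Members, subgroups and lists were chosen with earlier results of these data known. All members are named, and up to 4 rises and 4 falls of each further list. Alternatives were other variance priors, array weights, probe set choices, filters and a floor on low signal, centring, a further quantile step, a replicate block, averaging E17.5 A and B, a threshold of 0.01, and leaving out each array. Promoters are from RefSeq, GRCm38.p6. Figures used matplotlib 3.10.9.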

Additional observations from a re-analysis of the deposited data

How the results depend on the processing

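The count of members higher was 8 and of members lower 4, and the median difference 0.15. Members higher ranged from 6 to 12 and members lower from 1 to 5 without 1 array, and the median from 0.045 to 0.350. All genes higher ranged from 969 to 1553 and all genes lower from 770 to 1776, against 1493 and 1587. Members lower fell to 1 with A and B averaged, without E17.5 replicate A or B, with the floor at 4 or at a threshold of 0.01, and to 2 without the intensity trend. With A and B averaged 825 genes were lower, and at a threshold of 0.01 841 were higher and 701 lower. Array weights, which lean on E12.5 C (4.81) and E17.5 A (4.98) and B (3.24), called 19 members higher and 10 lower (3205 and 5219 of all genes), and called Trim54 lower by -0.027. The median was 0.033 when probe sets were averaged per gene, 0.55 over members with a mean of at least 4, 0.352 at 6, and 0 with the floor. Lmod3 was 0 with the floor. When probe sets open to several transcripts were dropped, Tpm3 was called at 1.220. With the replicate block 9 members were higher and 3 lower, and 1014 genes were lower. Whether the letters pair the arrays cannot be told from 3 arrays per age. Same-letter deviations correlated at -0.380, 0.255 and -0.0705, and different-letter ones at -0.342 to 0.366. The cause of these shifts was not tested. Ankrd1, Fhl1, Klhl41 and Mybpc1 were called in the same direction under each alternative run, apart from Ankrd1 where genes with a mean under 6 were left out.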
